A study of Mus with 10 samples.

Results

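The suppressors of cytokine signaling (SOCS) form a family of intracellular proteins that comprises *Socs1* to *Socs7* and *Cish*, which encodes CIS. These 8 genes were taken by symbol from the deposited table of 24564 genes, and all 8 passed the filter on low counts. Their measured levels were not a criterion, but the family was chosen with earlier results of these data known. They were compared between type 1 innate lymphoid cells (ILC1s), tissue-resident lymphocytes, that were sorted from the livers of *Ncr1*+/+ mice and of *Ncr1*gfp/gfp mice. Both strains are C57BL/6, and the paper's methods give male or female mice of 6 to 8 weeks, with no treatment given in the labels. In *Ncr1*gfp/gfp mice, gfp stands in place of *Ncr1*, the gene of the activating receptor NKp46. Each genotype had 5 libraries, made by polyA-primed amplification, and the labels do not say whether each came from a separate mouse. The p-values therefore set a difference between genotypes against the spread between these libraries, which may be partly technical. They may not extend to the spread between mice. The sort gates differed, since *Ncr1*+/+ ILC1s were selected as NKp46+ and *Ncr1*gfp/gfp ILC1s as GFP+, both within Lin-NK1.1+CD49b-CD49a+ cells. The comparison asks how loss of NKp46 relates to the transcripts of these inhibitors.

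SOCS proteins are feedback inhibitors. A cytokine receptor activates JAK kinases, these phosphorylate STAT transcription factors, and the STATs induce SOCS genes, whose products bind the receptor or the JAK through an SH2 domain. A second domain, the SOCS box, binds elongins B and C and cullin 5 to form a ubiquitin ligase, so that the bound protein can be degraded. In NK cells and related lymphocytes, CIS is known as a brake on IL-15 signaling, SOCS1 on interferon-γ signaling and SOCS3 on signaling through the gp130 chain of the IL-6 receptor family.

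Library totals were 17996935 to 22623133 counts for *Ncr1*+/+ and 15796253 to 21975879 counts for *Ncr1*gfp/gfp ILC1s. Levels are given as CPM, the count relative to the normalized library total, and 3 counts equal 0.132 to 0.190 CPM. The lowest count of any of the 8 genes was 218, so all of them were far above this limit, which covers counting error only. *Ncr1* itself was at 1913 to 2144 CPM in *Ncr1*+/+ and at 141.5 to 356 CPM in *Ncr1*gfp/gfp ILC1s. The ILC1 genes *Itga1*, *Klrb1c* and *Tbx21*, which encode CD49a, NK1.1 and T-bet, were at 387 CPM or more in all libraries, while *Eomes*, a transcription factor of NK cells, was at 5.06 to 17.7 CPM. Levels of *Xist*, a transcript of female cells, did not exceed 1.09 CPM in any library. Summed with 4 genes of the Y chromosome, they came to 341 to 408 CPM in *Ncr1*+/+ and 370 to 410 CPM in *Ncr1*gfp/gfp ILC1s. Nearly all of each sum thus came from the Y chromosome, and all 10 libraries had the pattern of male cells. *Ncr1*+/+ replicate 1 and *Ncr1*gfp/gfp replicate 3 stood apart by a summed level of 10 hepatocyte genes of 193 and 226 CPM, against 123 to 147 CPM in the other libraries.

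Levels of the 8 transcripts were first compared with each other after division of CPM by exon length (RPKM). *Cish* had the highest level in *Ncr1*+/+ ILC1s, at 56.2 ± 5.39 RPKM (SD, n = 5), and contributed 29.4% of the summed RPKM of the family. It was followed by *Socs1* at 39.2 ± 7.03 RPKM and *Socs2* at 35.3 ± 4.33 RPKM, whose ranges overlapped, so that their order was not resolved. *Socs4* came next, at 23.5 ± 1.63 RPKM. *Socs5*, *Socs3* and *Socs7* lay close together at 10.9 ± 0.488, 10.6 ± 1.66 and 10.1 ± 0.645 RPKM, with overlapping ranges between neighbours. *Socs6* was the lowest at 5.63 ± 0.418 RPKM, below *Socs7* in all 5 libraries.

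In *Ncr1*gfp/gfp ILC1s the order changed at a pair of places. *Socs2*, at 41.0 ± 2.11 RPKM, had a higher mean than *Socs1*, at 38.4 ± 6.64 RPKM, again with overlapping ranges. *Socs3* fell from the group of *Socs5* and *Socs7* to 6.22 ± 1.14 RPKM, below *Socs7* in all 5 libraries and overlapping with *Socs6* at 5.61 ± 0.706 RPKM. The summed RPKM of the 8 genes was 191 ± 11.7 in *Ncr1*+/+ and 197 ± 20.9 in *Ncr1*gfp/gfp ILC1s. *Socs3* made up 5.51 ± 0.671% of this sum in *Ncr1*+/+ and 3.21 ± 0.864% in *Ncr1*gfp/gfp ILC1s (SD, n = 5 each).

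**Figure D1:**
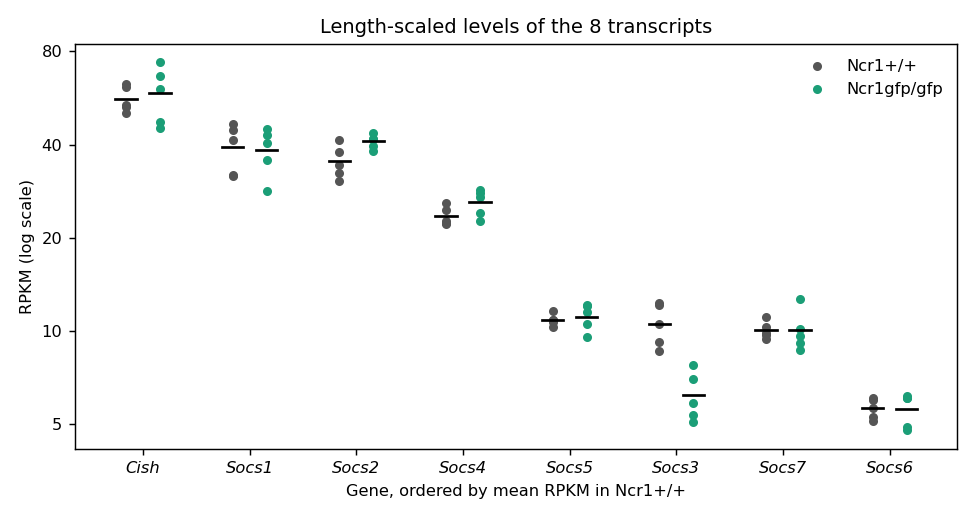
Levels of the 8 transcripts in RPKM on a log scale, with 1 point per library (5 per genotype) and a bar at the mean. *Cish* is at the top in both genotypes, and *Socs3* is the transcript whose points separate, with 8.63 to 12.3 RPKM in *Ncr1*+/+ and 5.08 to 7.77 RPKM in *Ncr1*gfp/gfp ILC1s.

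Between the genotypes, 1 of the 8 genes changed. *Socs3* was lower in *Ncr1*gfp/gfp ILC1s and the other 7 did not pass the test. A call required a fold change above 1.5 or below 0.7 together with an adjusted p-value under 0.05 in edgeR's quasi-likelihood test. This rule called 84 of the 11463 tested genes, or 0.733%, and 1.35% of tested genes had an adjusted p-value under 0.05 at any fold change. By both criteria the family held 1 such gene. The median log2 fold change of the 8 genes was 0.019, and that of all tested genes was 0.0027.

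*Socs3*, which encodes the inhibitor of gp130, is listed at 117827401 to 117830680 of chromosome 11 (minus strand), with 2724 bases of exon. Coordinates are given here as the deposited table lists them. The table names no genome build, and its positions are not GRCm38 coordinates. In the order of replicates 1 to 5, *Ncr1*+/+ libraries had 33.6, 23.5, 28.7, 33.0 and 25.1 CPM of *Socs3*, and *Ncr1*gfp/gfp libraries had 13.8, 14.6, 19.1, 21.2 and 15.95 CPM. Every *Ncr1*gfp/gfp library was therefore lower than every *Ncr1*+/+ library, with 21.2 against 23.5 CPM at the closest approach. Of all tested genes, 1.82% were separated in this direction. The counts behind these values were 462 to 653 in *Ncr1*+/+ and 218 to 360 in *Ncr1*gfp/gfp ILC1s.

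The mean of *Socs3* in *Ncr1*gfp/gfp ILC1s was 58.9% of that in *Ncr1*+/+ ILC1s, with a log2 fold change of -0.76 (95% interval -1.05 to -0.48, adjusted p = 0.00404, edgeR's quasi-likelihood test). A two-sided exact permutation test gave p = 0.00794, which is the lowest value 5 libraries against 5 can give. By p-value, *Socs3* ranked 52 among the 11463 tested genes. As fold change, its interval ran from 0.482 to 0.719. The lowest bound among the intervals of the other 7 genes was 0.819, for *Socs1*, so that the interval of *Socs3* lay below each of them. The direction and the call held with each library left out in turn, with log2 fold changes between -0.86 and -0.70. Without both libraries with raised hepatocyte genes it was -0.75 (adjusted p = 0.0243, edgeR's quasi-likelihood test). In bulk RNA, fewer cells that express a gene and less RNA per cell cannot be told apart.

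**Figure D2:**
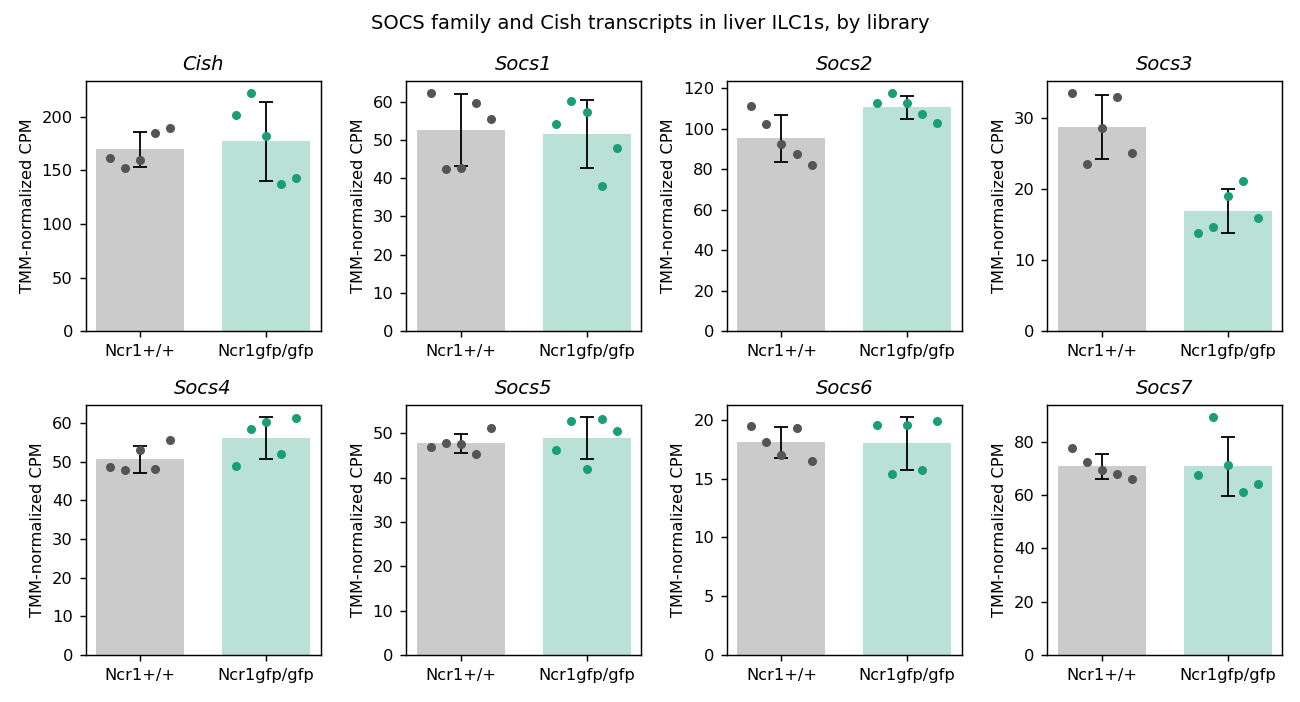
TMM-normalized CPM of each gene in *Ncr1*+/+ (grey) and *Ncr1*gfp/gfp (green) ILC1s, with 1 point per library in the order of replicates 1 to 5, bars at the mean and error bars of 1 SD (n = 5). The panel of *Socs3* shows no overlap between genotypes (23.5 CPM or more against 21.2 CPM or less), whereas the points of the other 7 genes overlap.

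Marker lists of other cells were examined beside this result. Of 9 T cell genes, 6 were tested and 3 were higher in *Ncr1*gfp/gfp ILC1s, namely *Cd3e* by a log2 fold change of 1.88, *Cd3g* by 0.45 and *Cd8a* by 1.53 (adjusted p = 0.00235, 0.00169 and 0.0248 in edgeR's quasi-likelihood test). The summed CPM of the list was 463 to 582 in *Ncr1*+/+ and 637 to 836 in *Ncr1*gfp/gfp ILC1s, of which *Cd3g* alone made up at least 442 CPM. *Cd6* and *Cd8b1* each had no count in 5 libraries. *Cd8a* no longer passed in 4 of the 10 fits without a library, and with DESeq2. *Cd3d*, with a log2 fold change of 1.05, did not pass in edgeR (adjusted p = 0.0527) but did with DESeq2 and with the likelihood ratio test. Of 12 NK cell genes, 10 were tested and *Itgam* and *Klra7* were higher, with log2 fold changes of 0.96 and 1.57 (adjusted p = 5.59e-05 and 0.00235 in edgeR's quasi-likelihood test). Reads of *Klra7* may be shared with near-identical genes of its family. The NK cell list summed to 451 to 487 CPM in *Ncr1*+/+ and 506 to 582 CPM in *Ncr1*gfp/gfp ILC1s, with *Klra4* at 0 counts in all libraries. *Prf1*, with a log2 fold change of 0.004, made up at least 325 CPM of this sum in every library. Of the 10 tested NK cell genes, 8 were above 0, and *Ly6c2* and *S1pr5* were below, at -0.77 and -0.30. Among 10 genes of ILC1s, *Itga1* was higher (log2 fold change 0.32) and *Il7r* and *Ncr1* lower, and without *Ncr1* the list summed to 4526 to 4777 CPM in *Ncr1*+/+ and 4495 to 4779 CPM in *Ncr1*gfp/gfp ILC1s. The summed levels of the B cell, myeloid, hepatocyte, endothelial and ILC2 and ILC3 lists overlapped between genotypes, and no gene of these lists passed edgeR's test, by adjusted p-value, or DESeq2's. Unadjusted p-values under 0.05 in edgeR were found for 1 of 4 tested hepatocyte genes and 1 of 3 tested ILC2 and ILC3 genes, against 11.4% of all tested genes. All 7 tested myeloid genes had values below 0, against 49.3% of all tested genes, with a median log2 fold change of -0.38. The part of any of these cells in the level of *Socs3* was not tested.

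*Cish* is the member most closely tied to IL-2 and IL-15, being a target gene of STAT5, and is listed on chromosome 9 from 107198990 to 107205115. In the same order, *Ncr1*+/+ libraries had 162, 152, 159.5, 184 and 189 CPM, and *Ncr1*gfp/gfp libraries had 201, 222, 182, 137 and 142 CPM. The highest and the lowest libraries were thus both *Ncr1*gfp/gfp, and the coefficient of variation was 9.59% in *Ncr1*+/+ and 20.9% in *Ncr1*gfp/gfp ILC1s. The means were 169 ± 16.3 and 177 ± 36.9 CPM (SD, n = 5 each), and the log2 fold change was 0.06 with a 95% interval from -0.16 to 0.29 (adjusted p = 0.901, edgeR's quasi-likelihood test). As fold change the interval was 0.895 to 1.22, so that a decrease of the size seen for *Socs3* lay outside it.

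*Socs2*, another STAT5 target gene and the inhibitor of growth hormone signaling, lies on chromosome 10 from 94874124 to 94879491. Levels by replicate were 111, 102, 92.4, 87.6 and 82.2 CPM for *Ncr1*+/+ and 112.5, 118, 113, 107 and 103 CPM for *Ncr1*gfp/gfp ILC1s. In the *Ncr1*gfp/gfp ILC1s, 5 of 5 libraries were above 4 of the 5 *Ncr1*+/+ libraries, and the overlap came from *Ncr1*+/+ replicate 1, the *Ncr1*+/+ library with raised hepatocyte genes. The log2 fold change was 0.22 with a 95% interval from 0.05 to 0.38, and the adjusted p-value was 0.238 in edgeR's quasi-likelihood test, so the difference did not pass the correction for all tested genes, nor did it in any alternative fit (adjusted p 0.0980 to 0.468). Unadjusted, a two-sided exact permutation test gave p = 0.0317. Without *Ncr1*+/+ replicate 1 the log2 fold change was 0.28 (adjusted p = 0.0980 in the same edgeR test).

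*Socs1*, the inhibitor of JAK1, JAK2 and TYK2 that interferon-γ induces, lies on chromosome 16 from 10783902 to 10785629. Levels by replicate were 62.2, 42.4, 42.6, 59.6 and 55.5 CPM for *Ncr1*+/+ and 54.1, 60.1, 57.4, 37.8 and 47.8 CPM for *Ncr1*gfp/gfp ILC1s. Its libraries spread over a similar range in both genotypes, with coefficients of variation of 17.95% and 17.3%. The log2 fold change was -0.03 with a 95% interval from -0.29 to 0.24 (adjusted p = 0.968, edgeR's quasi-likelihood test).

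*Socs4* and *Socs5* form a pair with long N-terminal regions, and both are known as inhibitors of epidermal growth factor receptor signaling. *Socs4*, on chromosome 14 from 47896818 to 47911266, was at 47.9 to 55.7 CPM in *Ncr1*+/+ (median 48.7) and at 48.9 to 61.4 CPM in *Ncr1*gfp/gfp ILC1s (median 58.4), a log2 fold change of 0.15 with a 95% interval from -0.03 to 0.33 (adjusted p = 0.544, edgeR's quasi-likelihood test). *Socs5*, on chromosome 17 from 87507019 to 87536925, was at 45.3 to 51.2 CPM in *Ncr1*+/+ and at 41.9 to 53.2 CPM in *Ncr1*gfp/gfp ILC1s. Its range in *Ncr1*+/+ ILC1s lay within that of *Ncr1*gfp/gfp ILC1s, and its log2 fold change was 0.04 (95% interval -0.14 to 0.21).

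*Socs6* and *Socs7* form the other pair with long N-terminal regions, of which SOCS6 is known to bind the receptor KIT and SOCS7 the insulin receptor substrates. *Socs6* is listed on chromosome 18 from 89037272 to 89063599 and had 18.1 ± 1.34 CPM in *Ncr1*+/+ and 18.0 ± 2.27 CPM in *Ncr1*gfp/gfp ILC1s (SD, n = 5 each). *Socs7* is listed on chromosome 11 from 97223865 to 97259856 and had 70.7 CPM in both genotypes (SD 4.53 and 11.1, n = 5 each), with the highest value, 89.4 CPM, in *Ncr1*gfp/gfp replicate 2. The 95% intervals of their log2 fold changes were -0.26 to 0.25 and -0.19 to 0.19. For *Socs1*, *Socs6*, *Socs7* and *Cish*, the sign of the difference turned when some libraries were left out, so no direction is given for them.

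**Figure D3:**
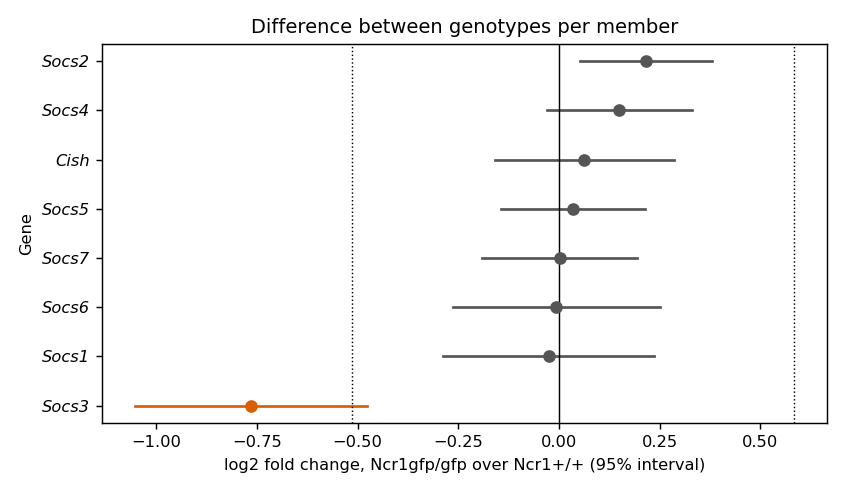
Log2 fold change of each gene in *Ncr1*gfp/gfp over *Ncr1*+/+ ILC1s, with its 95% interval from edgeR's quasi-likelihood fit. Dotted lines mark fold changes of 0.7 and 1.5, and *Socs3* (orange, -0.76) is the called gene, with an interval that does not meet those of the other 7 genes.

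How the 8 transcripts varied among libraries of the same genotype was described after the mean of each genotype was subtracted from log2 CPM. Over the 10 libraries, 4 of the 28 pairs of genes had a Pearson correlation above 0.5, and 1 was below -0.5. The highest was that of *Cish* and *Socs1* (r = 0.75), and *Cish* and *Socs7* (r = 0.60), *Socs2* and *Socs7* (r = 0.66) and *Socs1* and *Socs7* (r = 0.55) followed. *Ncr1*gfp/gfp replicate 4 had the lowest level of both *Cish* and *Socs1*, and *Ncr1*gfp/gfp replicate 2 the highest of *Cish* and the second highest of *Socs1*. *Socs3* had no such partner in the family, with r between -0.40 and 0.09. *Socs5* and *Socs6* varied in opposite directions (r = -0.74). All genes of a library share its depth and its amplification, and these values are a description of 10 libraries.

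**Figure D4:**
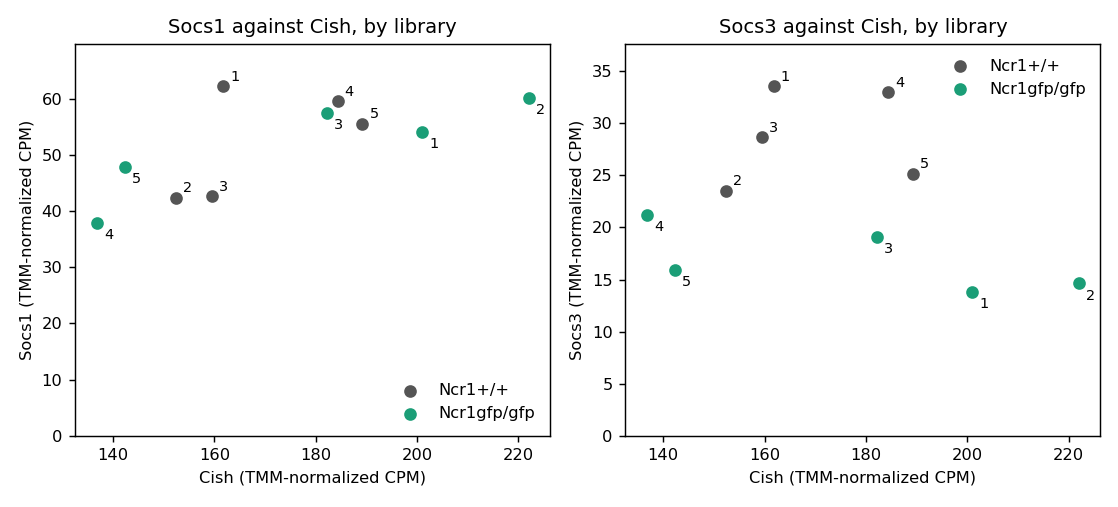
CPM of *Socs1* (left) and *Socs3* (right) against that of *Cish*, with 1 point per library labelled by its replicate number. In the left panel *Socs1* tends to be higher where *Cish* is higher (r = 0.75 within genotypes), and in the right panel the genotypes separate along *Socs3*, at 23.5 CPM or more and 21.2 CPM or less.

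Among all tested genes, those whose variation within genotype was most like that of *Cish* were *Gzmb* (r = 0.95), *Tbc1d10b* (r = 0.95), *Kat14* (r = 0.94), *Snrnp25* (r = 0.94) and *3110062M04Rik* (r = 0.93, 10 libraries). *Gzmb*, which encodes granzyme B, was higher in *Ncr1*gfp/gfp ILC1s, at 3071 ± 741 CPM against 2091 ± 131 CPM (SD, n = 5 each), with an adjusted p of 0.00813 in edgeR's quasi-likelihood test. This value is of RNA, and for the protein the paper reports the opposite direction, a reduction in *Ncr1*gfp/gfp ILC1s by flow cytometry. For *Socs3* the closest genes were *Dnajb6* (r = 0.93), *Dvl2* (r = 0.92), *4933433G15Rik* (r = 0.92), *Serpinf2* (r = 0.91) and *Plod3* (r = 0.91). None of these 5 differed between genotypes past the threshold, the smallest adjusted p-value being 0.878 in edgeR's quasi-likelihood test. The mean CPM in *Ncr1*+/+ ILC1s was 1.16 for *4933433G15Rik* and 0.703 for *Serpinf2*. These correlations were picked as the highest over all tested genes from 10 libraries, so their size reflects that choice.

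The other parts of the pathway were then examined with lists of genes by role, and the list counts are given beside those of all tested genes, of which 65 rose and 90 fell. Genes are said to have risen or fallen here at an adjusted p-value under 0.05 in edgeR's quasi-likelihood test, whatever the fold change. Upstream of the SOCS genes, 31 receptor chains that signal through JAKs were listed and 22 were tested, of which 2 fell and none rose. *Il2ra*, the α chain of the IL-2 receptor, was at 33.4 to 47.9 CPM in *Ncr1*+/+ and 14.4 to 20.9 CPM in *Ncr1*gfp/gfp ILC1s, a log2 fold change of -1.24. *Il7r*, the α chain of the IL-7 receptor, had a log2 fold change of -0.97 with overlapping values (132 to 199 CPM against 45.1 to 135 CPM), and its call was lost without both libraries with raised hepatocyte genes (adjusted p = 0.0550, edgeR's quasi-likelihood test). Growth hormone, prolactin, erythropoietin, leptin and oncostatin M receptor genes (*Ghr*, *Prlr*, *Epor*, *Lepr* and *Osmr*) did not pass the filter, with at most 0.688 CPM for *Ghr*, the receptor on which SOCS2 acts. The median log2 fold change of the tested receptor chains was -0.07, with 16 of 22 below 0, against 49.3% of all tested genes. In edgeR, 7 of the 22 (31.8%) had an unadjusted p under 0.05, against 11.4% of all tested genes.

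No JAK kinase (4 tested) and no STAT factor (7 tested) passed the test in edgeR, DESeq2 or limma-voom, and unadjusted p-values in edgeR were under 0.05 for 1 JAK and 0 STATs, against 11.4% of all tested genes. The JAKs with the smallest p-values were *Jak2*, with a log2 fold change of -0.17 (adjusted p = 0.129, edgeR's quasi-likelihood test), and *Tyk2*, with -0.07. For *Jak2*, and for the receptor chain gene *Il2rb*, all *Ncr1*gfp/gfp libraries were below all *Ncr1*+/+ libraries, as for 1.82% of all tested genes. Among the STATs these were *Stat5a* and *Stat4*, with log2 fold changes of -0.18 and -0.11 (adjusted p = 0.477 and 0.482 in edgeR's quasi-likelihood test). A list of 8 genes of elongin and cullin ubiquitin ligases included the elongins (*Eloc* and *Elob*). None of the 8 passed in any of these tools either (0 at an unadjusted p under 0.05), and their median log2 fold change was 0.11. *Cul5*, the gene of the cullin that the SOCS box binds, had 0.16, and *Cul2*, the other cullin gene of the list, had 0.15. Of 15 tested genes of other SOCS-box proteins none passed and 3 had an unadjusted p under 0.05, the smallest p-values being those of *Asb2* (log2 fold change -0.31) and *Spsb1* (-1.18, at 1.23 CPM or less on average). Of 13 other inhibitors of JAK and STAT signaling none passed and 1 had an unadjusted p under 0.05. The smallest p-values were those of the phosphatase gene *Ptpn11* (log2 fold change 0.16) and the ubiquitin ligase gene *Cblb* (-0.11).

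Proteins that single SOCS members are known to bind outside the JAK and STAT proteins were listed as 15 genes, of which 13 were tested. In edgeR, 6 of the 13 (46.2%) had an unadjusted p under 0.05, against 11.4% of all tested genes, and 2 genes fell. These were *Igf1r*, the receptor of insulin-like growth factor 1 and a binding partner of SOCS2, and *Kit*, the receptor of stem cell factor and a partner of SOCS6. *Igf1r* had 21.2 ± 4.65 CPM in *Ncr1*+/+ and 10.5 ± 3.73 CPM in *Ncr1*gfp/gfp ILC1s (SD, n = 5 each) with no overlap, and its log2 fold change was -1.02 (adjusted p = 0.0139, edgeR's quasi-likelihood test), and its call was lost without *Ncr1*+/+ replicate 3 (adjusted p = 0.0522). *Kit* had 32.0 ± 7.13 CPM in *Ncr1*+/+ and 18.9 ± 5.83 CPM in *Ncr1*gfp/gfp ILC1s (SD, n = 5 each) with overlapping values, and did not pass in 8 of 10 fits without a library, with an adjusted p of up to 0.105 in edgeR's quasi-likelihood test. *Rela* also passed with DESeq2, and *Irs2* with the likelihood ratio test. Their log2 fold changes were -0.21 and -0.58 (adjusted p = 0.0994 and 0.0923 in edgeR's quasi-likelihood test). For *Rela*, all *Ncr1*gfp/gfp libraries were below all *Ncr1*+/+ libraries, as for 1.82% of all tested genes.

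Downstream of the STATs, other target genes of STAT5 were listed because *Cish* and *Socs2* are target genes of the same factor. Of the 17 genes tested, 4 fell, namely *Il2ra*, *Pim2*, *Furin* and *Pim1*, and *Gzmb* rose, though not without both libraries with raised hepatocyte genes (adjusted p = 0.0596, edgeR's quasi-likelihood test). *Pim1* and *Pim2* encode kinases of cell survival. *Pim2* was at 165 to 289 CPM in *Ncr1*+/+ and 106 to 140.0 CPM in *Ncr1*gfp/gfp ILC1s, and *Pim1* at 293 to 371 CPM and 233 to 266 CPM. *Furin* encodes a protease of the secretory pathway and had a log2 fold change of -0.54, which was past the limit on fold change except without *Ncr1*gfp/gfp replicate 3 or *Ncr1*+/+ replicate 4. The median log2 fold change of the list was -0.05, with 9 genes below 0 and 8 above. In edgeR, 8 of the 17 genes (47.1%) had an unadjusted p under 0.05, against 11.4% of all tested genes. The list was chosen with earlier results of these data known, so these counts are a description and not a test.

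Of 12 tested genes known as targets of STAT3, the factor that induces *Socs3*, 3 fell and none rose. With DESeq2 and with limma-voom, 1 gene of the list passed. The median log2 fold change was -0.21, and 10 of the 12 were below 0, against 49.3% of all tested genes. In edgeR, 6 of the 12 had an unadjusted p under 0.05, against 11.4% of all tested genes. This list too was chosen with earlier results of these data known, so these counts are a description. *Maf*, a transcription factor, had 122 ± 12.2 CPM in *Ncr1*+/+ and 87.8 ± 4.92 CPM in *Ncr1*gfp/gfp ILC1s (SD, n = 5 each) with no overlap, and its log2 fold change was -0.48 (adjusted p = 0.00126, edgeR's quasi-likelihood test). The AP-1 genes *Fos* and *Junb*, which many stimuli induce, had log2 fold changes of -1.21 and -0.46 (adjusted p = 0.0377 and 0.0335 in the same edgeR test). Both had overlapping values, and neither passed in 7 of 10 fits without a library, nor with DESeq2 or limma-voom.

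**Figure D5:**
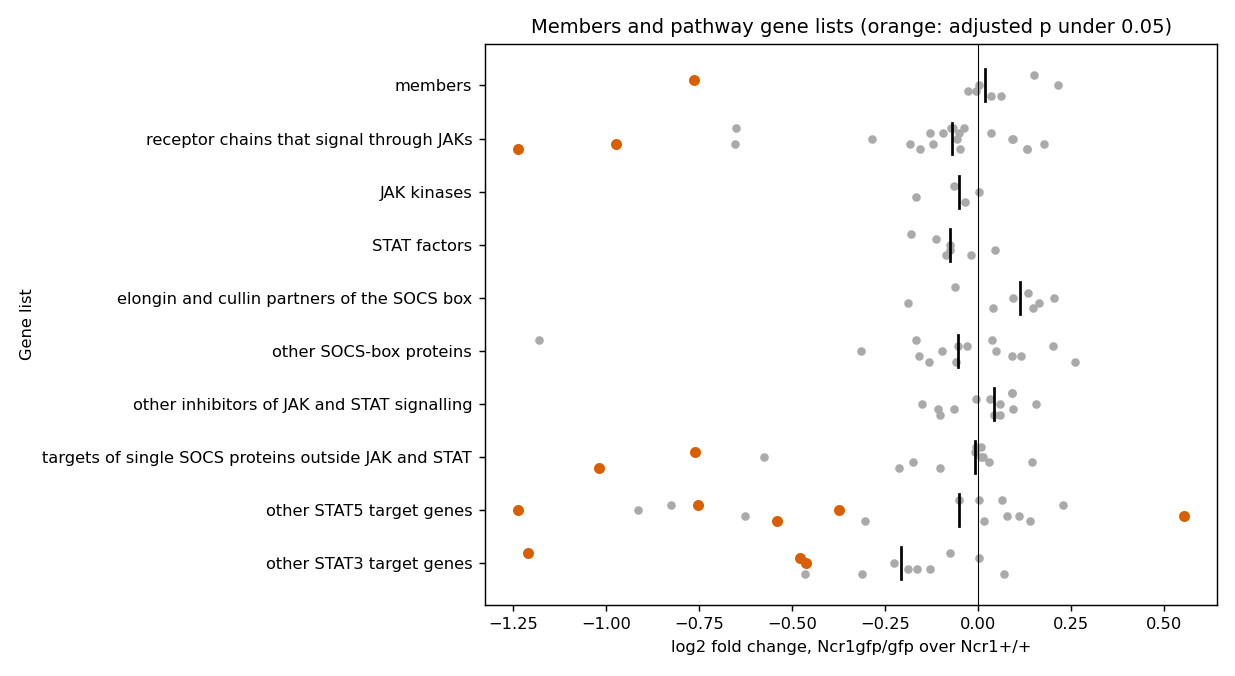
Log2 fold change in *Ncr1*gfp/gfp over *Ncr1*+/+ ILC1s of each tested gene of the SOCS family and of 9 pathway lists, with 1 point per gene and a black bar at the median of each list. Orange points have an adjusted p-value under 0.05, among them *Socs3* at -0.76 in the top row, and the median is lowest for STAT3 target genes (-0.21) and highest for the elongin and cullin partners (0.11).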

How the data were processed

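RNA-seq counts of 5 Ncr1+/+ and 5 Ncr1gfp/gfp liver ILC1 libraries were analysed, grouped by the genotype in the labels. The authors amplified cDNA from 2 ng of total RNA, sequenced single reads of 51 cycles, trimmed them, mapped them to mm10 (STAR 020201) and obtained gene counts from HTSeq 0.6.0 with its default settings. They deposited whole-number counts without normalization. HTSeq counts by strand at its default and the kit does not mark strand, so antisense reads cannot be told apart, but no member overlapped another listed gene. The symbols of all 8 members matched RefSeq's GRCm38.p6 gene table. Members and lists were chosen with earlier results of these data known. From the counts, filterByExpr kept 11463 of 24564 genes. They were normalized by TMM and tested with edgeR 4.0.16 (R 4.3.3), without covariates, with Benjamini-Hochberg adjustment over all tested genes. Intervals are 95% from the quasi-likelihood standard error. The steps were tested on simulated data. CPM values are TMM-normalized, and RPKM is CPM per kilobase of listed exon. Alternatives were DESeq2 1.42.0, limma-voom (limma 3.58.1) with quality weights, upper-quartile normalization, the likelihood ratio test, other filters and thresholds, a replicate block and left-out libraries. In all 20 comparisons within a genotype, counts of replicates differed beyond sampling noise (chi-square per gene 9.18 to 24.0). Named genes are the members, Ncr1, list genes with an adjusted p-value under 0.05 (or the 2 smallest p-values of a pathway list with none), and the 5 genes most correlated with Socs3 and with Cish. Other list genes are named where they limit these results. A further gene list is not reported here.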

Additional observations from a re-analysis of the deposited data

Results flagged for a closer look

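The members, *Ncr1*, library totals, the summed RPKM of the family and the marker lists were examined for a library far from the others of its genotype, measured as its distance from the next value divided by the span of all 5. Of 40 groups, 2 passed the limit of 0.71, and chance passes about 5% of groups. Both were in the summed CPM of the hepatocyte list, at 193 in *Ncr1*+/+ replicate 1 (next library 147) and at 226 in *Ncr1*gfp/gfp replicate 3 (next library 146.5). *Alb* reached at most 28.0 and 38.0 CPM in the 2 genotypes, and *Trf*, which made up at least 120 CPM in every library, was the largest part of the list. No member stood apart in this way.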

How the results depend on the processing

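*Socs3* kept its direction and its call under all alternatives tried except the threshold of an absolute log2 fold change above 1, at which 0 members and 23 genes in all were called. Its log2 fold change ranged from -0.86 to -0.70 with a library left out (adjusted p up to 0.0193, edgeR's quasi-likelihood test). The count of called genes moved to 138 with the likelihood ratio test, 131 with no filter on low counts and 155 with no limit on fold change, and was 126 with DESeq2. With a library left out it was 60 to 98. With the replicate number as a replicate block, 87 genes were called, *Socs3* was at -0.77 (log2 fold change, adjusted p = 0.00487 in edgeR) and *Socs7* turned to -0.0088. Replicate numbers did not pair libraries, with correlations of deviations between -0.02 and 0.04. No *Ncr1*+/+ library correlated best with its own number. Of the calls named here, the block changed that of *Fos* (adjusted p = 0.0966 in edgeR). With limma-voom, *Socs6*, *Socs7* and *Cish* changed sign, to 0.030, -0.022 and -0.048. With a library left out, the log2 fold change ranged from -0.095 to 0.067 for *Socs1*, -0.044 to 0.047 for *Socs6*, -0.097 to 0.052 for *Socs7* and -0.033 to 0.14 for *Cish*. None of these 4 genes was called in any fit, and the cause of the turns was not tested. Leaving out *Ncr1*+/+ replicate 1 and *Ncr1*gfp/gfp replicate 3 together was chosen after seeing the data and called 60 genes, *Socs3* among them. Depth limits no member, but differences within a gene's 95% interval were not resolved.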
